A study of Homo sapiens with 4 samples.

Results

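The 10 genes described here encode proteins that work with FOXK1 or its close relative FOXK2: the SIN3 corepressor scaffolds SIN3A and SIN3B, the PR-DUB subunits BAP1, ASXL1, ASXL2, MBD5 and MBD6, and the associated proteins OGT, HCFC1 and YY1. They were chosen by name among 20033 protein-coding genes, and all 10 symbols matched RefSeq on GRCh38. For each gene, every FOXK1 peak that overlapped the gene body plus 5 kb on either side was taken from the deposited peak lists, which gave 176 peaks from the control cells (control list) and 236 from the cells given TGF-β1 (treated list). FOXK1, a forkhead transcription factor, was mapped by ChIP-seq, in which DNA bound by an immunoprecipitated protein is sequenced, in HK-2, an immortal line of human kidney proximal tubule cells. Cells were left without TGF-β1, a secreted factor known for its part in fibrosis, or were given 10 ng/ml of it for 24 h. Each of these conditions had 1 FOXK1 library and 1 input library of purified chromatin DNA, 4 libraries in all. The chromatin was cut with micrococcal nuclease and sonicated, and the labels mention transfection but name no construct. The input libraries have no peak list among the files used here. A peak list measures no RNA, so the cell type was not checked against its markers.

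FOXK proteins hold both a forkhead domain, which binds DNA, and a forkhead-associated domain, which binds phosphorylated protein partners. They bring the SIN3 histone deacetylase complex to genes and also bind BAP1. BAP1 is the catalytic subunit of PR-DUB, the Polycomb repressive deubiquitinase, which removes ubiquitin from histone H2A. ASXL proteins activate BAP1, MBD5 and MBD6 attach to the same complex, and OGT, HCFC1 and YY1 are found with it. The question put to the peak lists was whether the genes of these partners themselves carry FOXK1 peaks, where these lie, and whether they recur in both libraries.

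The control list held 381700 peaks and the treated list 439136 on assembled chromosomes, both with a median height of 5. Height is the authors' pileup value for each peak, a whole number of at least 3. The number of reads was not given in the sources used here, so depth is unknown. A pair of heights from the 2 lists therefore cannot show whether binding changed. There were no replicates, so no test of TGF-β1 was possible and each difference compares 2 libraries. A strong peak is one at or above the height of the 10000th highest peak of its list, which was 17 for control and 15 for treated peaks. A start peak is one that overlaps the 1 kb on either side of an annotated start of the gene. Peaks are placed by distance from the start or 5′ end of the gene in the direction of transcription, with negative values before it, since exons and introns were not annotated here. All coordinates are on GRCh38 (hg38). Intervals are exact Clopper-Pearson 95% intervals and cover counting error only.

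The sequences just before the starts of 5 members are shown: MBD6, YY1, OGT and MBD5 because the strong start peaks lie on or beside them, and ASXL2, whose start peaks are lower, because peaks of both lists cover its whole promoter. Each is 250 bases, read in the direction of transcription up to the last base before an annotated start, from RefSeq promoters on GRCh38.p14. Capitals mark CCGGAAG, the core bound by ETS factors, and ACAAACA, a form of the forkhead core, on either strand. The windows are chrX:71532854-71533103 (OGT, plus strand), chr12:57522574-57522823 (MBD6, plus), chr2:148020761-148021010 (MBD5, plus), chr2:25878488-25878737 (ASXL2, minus) and chr14:100238894-100239143 (YY1, plus).
OGT: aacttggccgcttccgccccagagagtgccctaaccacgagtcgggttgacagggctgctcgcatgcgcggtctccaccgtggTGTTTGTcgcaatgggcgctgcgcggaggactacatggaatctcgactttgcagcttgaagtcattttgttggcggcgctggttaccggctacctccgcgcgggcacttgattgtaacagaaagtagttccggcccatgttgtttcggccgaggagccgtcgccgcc
MBD6: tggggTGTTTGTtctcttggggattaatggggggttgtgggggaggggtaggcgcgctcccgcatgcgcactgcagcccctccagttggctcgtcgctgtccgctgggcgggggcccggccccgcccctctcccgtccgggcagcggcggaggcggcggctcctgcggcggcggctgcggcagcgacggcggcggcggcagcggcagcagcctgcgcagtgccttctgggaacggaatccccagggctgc
MBD5: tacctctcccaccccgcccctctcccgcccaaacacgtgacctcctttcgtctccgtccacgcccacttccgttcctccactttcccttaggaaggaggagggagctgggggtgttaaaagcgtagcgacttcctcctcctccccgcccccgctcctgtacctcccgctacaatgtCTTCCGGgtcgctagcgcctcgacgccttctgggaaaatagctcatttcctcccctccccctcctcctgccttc
ASXL2: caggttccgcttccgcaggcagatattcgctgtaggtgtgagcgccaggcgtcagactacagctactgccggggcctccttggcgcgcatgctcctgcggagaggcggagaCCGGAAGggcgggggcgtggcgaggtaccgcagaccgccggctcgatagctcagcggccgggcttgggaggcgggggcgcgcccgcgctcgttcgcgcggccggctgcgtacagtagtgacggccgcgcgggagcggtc
YY1: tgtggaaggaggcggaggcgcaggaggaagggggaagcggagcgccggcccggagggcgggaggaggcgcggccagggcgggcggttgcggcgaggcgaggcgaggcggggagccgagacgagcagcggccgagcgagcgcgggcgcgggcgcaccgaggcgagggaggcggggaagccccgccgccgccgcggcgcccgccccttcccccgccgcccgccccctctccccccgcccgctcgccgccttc

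Peaks of both lists covered all 300 bases of the RefSeq promoter, which runs from 250 bases before to 50 after the start, at OGT and ASXL2 and at the first of the MBD5 promoters. At MBD6 they covered only the far end of it, 92 bases in the control list and 91 in the treated list, and that end holds the ACAAACA match at -245 bases from the start. At YY1 no control peak touched the promoter and a treated peak of height 9 covered 19 bases of it. The canonical forkhead sequence GTAAACA was in none of the 13 RefSeq promoters that 8 of the members have, and in 2.85% of 22198 promoters of protein-coding genes. BAP1 and HCFC1 had no entry. The shorter core TAAACA occurred in 1 of the 13, at 34 bases after the outermost start of SIN3A, and in 9.54% of all promoters. GTAAACA contains this core, and ACAAACA contains neither. ACAAACA, which was added after the sequences were seen, was found at MBD6 and at OGT (-167 bases) and in 4.31% of all promoters. CCGGAAG was in 5 of the 13 promoters, from the 3 genes ASXL1, ASXL2 and MBD5, against 12.8% of all. These 5 are fewer separate sites, since the promoters of ASXL1 and of MBD5 that hold it overlap. AAGATGGC, a YY1 sequence, was in 1 promoter of ASXL1 and in 3.53% of all, and not in the promoter of YY1. No match was found for the AP-1 sequence TGANTCA (6.15% of all promoters), the cAMP response element TGACGTCA (2.26%), the ZNF143 and THAP11 motif (1.80%) or the E2F sequences TTTCGCGC (0.712%) and TTTGGCGC (0.815%). The GC box CCGCCC was in 9 of the 13 and in 56.3% of all. All motifs were searched on both strands over 300 bases.

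Every one of the 10 genes had a peak over its body plus 5 kb in each list, a share close to the background of 94.7% (control) and 94.8% (treated) of all protein-coding genes. A strong peak over that span was found at 5 members in each list, OGT, YY1, ASXL1, MBD5 and MBD6, against 31.1% and 29.9% of all genes. A longer gene can hold more peaks, and the median length was 47.3 kb over the members and 24.1 kb over all genes, so these shares are not matched for length. All 10 also had a start peak in each list, against 71.7% and 70.5% of all genes. Each start adds a window in which a start peak can fall. ASXL1 and MBD5 had 3 starts each, OGT and YY1 had 1 and the rest 2. Shares at starts, here and below, are not matched for this number. Start peaks of height 10 or more were found at 7 members in each list, against 40.4% and 33.2%, and 6 of these genes were common to both lists. The median height of the highest start peak was 12.5 and 13 over the members and 8 and 7 over all genes, with genes without a start peak counted as 0.

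A strong start peak was found at 4 of the 10 genes among control peaks, against 17.3% of all genes, and at 4 with TGF-β1, against 16%. They were the same 4 genes in both, MBD6, YY1, OGT and MBD5, and 12.2% of all genes were strong in both lists. The remaining 6, which include both SIN3 scaffolds, the catalytic subunit BAP1, both ASXL genes and HCFC1, were strong at the start in neither. The plot of start peak heights shows this gap, and the plot of members on the distribution of all genes shows how common each height is.

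**Figure D1:**
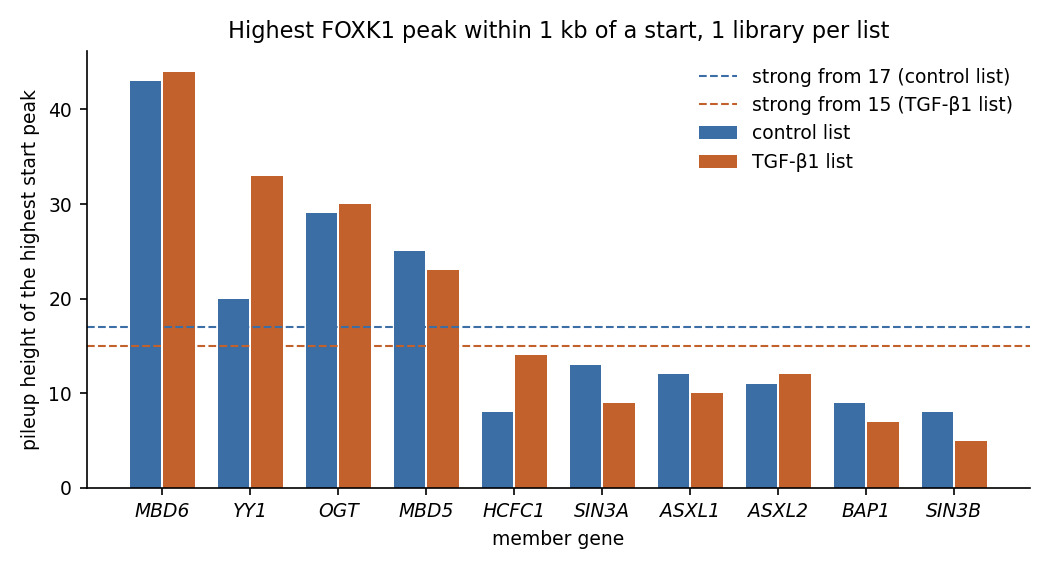
Pileup height of the highest FOXK1 peak within 1 kb of a start for the 10 member genes, in the control (blue) and treated (TGF-β1, orange) lists, with dashed lines where strong peaks begin (17 and 15). Bars are single libraries without error. MBD6, YY1, OGT and MBD5 lie above the line of each list and the other genes below it.

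**Figure D2:**
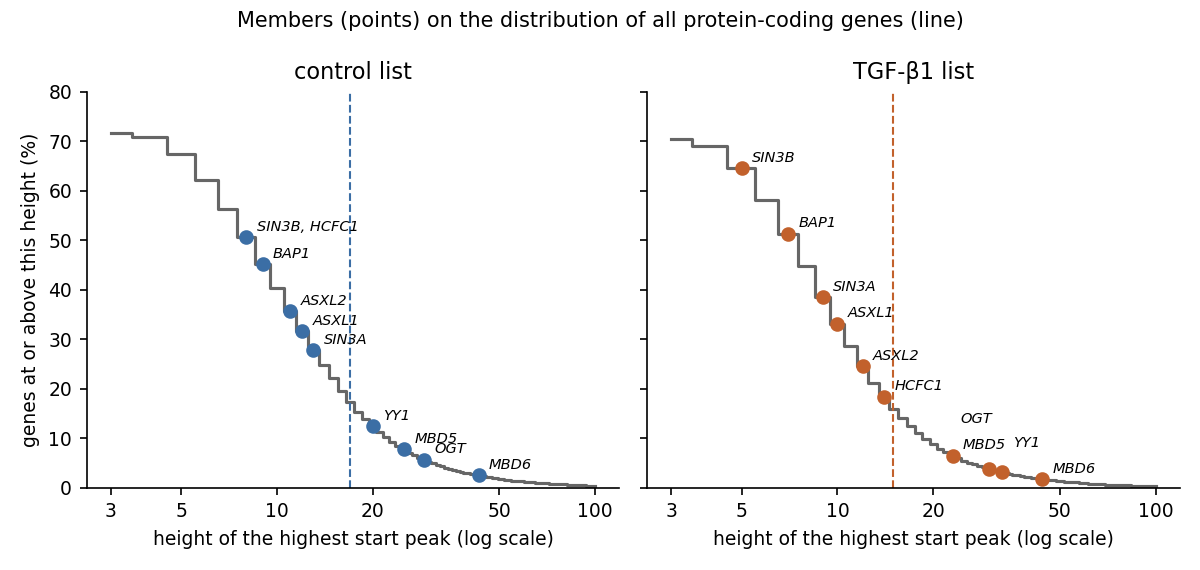
Share of the 20033 protein-coding genes (grey line, in %) whose highest start peak is at or above a given pileup height (log scale), in each list, with the members as points and a dashed line where strong peaks begin. MBD6 has the highest start peak in both lists, so its point lies furthest right and lowest. SIN3B and BAP1 have low start peaks in both, so their points lie toward the upper left.

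Among the scaffolds, SIN3A (chr15:75369379-75455815, minus strand), which holds histone deacetylases and sequence-specific factors together, had modest heights but an unusually wide peak. Its highest control start peak had a height of 13, reached by 27.8% of genes, and covered chr15:75449498-75455281. This 5784 bp was the greatest width of all 381700 control peaks, and the next widest had 5250 bp. It began just after the outermost start and ran over the inner annotated start, at 75451690. In the treated list 2 peaks of heights 9 and 8 lay within it and together covered 3031 bp, 52.4% of it. A treated peak of height 6 covered the outermost start itself, where the control list had none, and peaks of 10 (control) and 7 (TGF-β1) overlapped each other just before it. The width was noticed after the values were seen. The height of 9 was reached by 38.5% of genes in the treated list.

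SIN3B, the other scaffold (chr19:16829398-16880349, plus strand), had the lowest start peak of the set in the treated list and shared the lowest control height with HCFC1. Its outermost start had a control peak of height 8 (50.7% of genes at or above) with its midpoint at -0.3 kb, overlapped by a treated peak of height 4. The highest treated start peak, of height 5 (64.7% of genes), lay at 34.7 kb, beside the internal start that RefSeq lists, and no control peak overlapped it. Its highest control peak, of height 11, lay -4.2 kb from the start in the upstream flank, where the treated list had a height of 6. No SIN3B peak was strong and no place had a height of 10 or more in both lists.

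BAP1, the deubiquitinase itself (chr3:52401008-52410008), had 4 peaks in each list. The reference tables used here give it no strand, so both gene ends were taken as possible starts. At the higher-coordinate end the control list had a peak of height 9 (45.3% of genes) at chr3:52410927-52411306, whose window is shared with the neighbouring gene PHF7. A treated peak of height 7 overlapped it just outside the window. The highest treated start peak, also of height 7 (51.4% of genes), covered the end itself at chr3:52409817-52410550 and had no control counterpart. At the lower-coordinate end the treated list had a peak of height 6 and the control list none. BAP1 was the 1 member with no pair of start peaks, of any height, that overlapped between the lists.

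The ASXL genes, whose products activate BAP1, had start peaks of middling height. ASXL1 (chr20:32358331-32439319, plus strand) had a control peak of height 12 over its outermost starts, at chr20:32357596-32358581, and no treated peak overlapped it. Its highest treated start peak, of height 10 at chr20:32358852-32359659, lay over the downstream start and was overlapped by a control peak of height 9. Heights of 12 and 10 were reached by 31.6% and 33.2% of genes. The strong ASXL1 peaks were elsewhere. In the control list it was a peak of height 19 in the upstream flank (midpoint -3.2 kb), where the treated list had 13, and in the treated list a peak of height 15 at 28.0 kb inside the gene, where the control list had 10. Another place inside the gene, at 10.9 kb, had heights of 10 and 12.

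ASXL2 (chr2:25733753-25878487, minus strand) had a broad control peak of height 11 over its outermost start (2124 bp, 35.8% of genes) and a treated peak of height 12 (24.6%) that overlapped it along 1065 bp. A further place at 26.6 kb inside the gene had heights of 10 and 12. The second annotated start of ASXL2, in a promoter much poorer in G and C than the 69.7% of the outermost one, had no peak on its promoter in either list. ASXL1 thus had 2 control and 1 treated start peaks, and ASXL2 had 1 and 2.

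MBD6 and MBD5, related proteins of the complex with a domain like that of methyl-CpG-binding proteins, were both strong at their starts in both lists. MBD6 (chr12:57520715-57531545, plus strand) had the highest start peak of the set, with a control height of 43 and a treated height of 44, reached by 2.52% and 1.73% of genes. The peaks overlapped along 915 bp, chr12:57521750-57522664, and ended within 1 bp of each other. They lay between the outermost end of the gene, at 57520715, and the start at 57522824, on the near side of the latter, with midpoints at -616 and -832 bases from it. With gene ends in place of annotated starts, the control peak of 43 falls outside the window and MBD6 is strong in the treated list only. At the outermost end of MBD6 both lists had a low peak, of heights 8 and 9, which also overlapped DDIT3, a stress-induced transcription factor gene. The treated peak of 44 also reached the start windows of DDIT3 and LOC128125814.

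MBD5 (chr2:148020927-148516971, plus strand) is the longest member, 496045 bp, and its start peak had heights of 25 (7.77% of genes) and 23 (6.52%). The control peak covered chr2:148019682-148022065 and all 3 starts, and the treated peak chr2:148019900-148021087. This place is also the start region of ORC4, a subunit of the origin recognition complex, which overlaps it, so the peak cannot be given to one gene. Of 65 control and 104 treated peaks over MBD5, the only other strong one was in the control list at 488.6 kb, 98.5% of the way along the gene. There the control list had a height of 23 and the treated list 14, 1 below its strong limit, with the peaks overlapping along 420 bp at chr2:148509489-148509908.

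OGT (chrX:71533104-71575892, plus strand), the enzyme that adds O-linked N-acetylglucosamine to proteins and also cleaves HCFC1, had more strong peaks than any other member. Its start peak had a height of 29 in the control list (chrX:71532301-71533327) and 30 in the treated list (chrX:71531667-71533650), reached by 5.72% and 3.81% of genes, and both covered the start. Inside the gene, a place at 8.4 kb had heights of 23 and 25 and a place at 22.1 kb had 22 and 25. A further place at 10.3 kb had 18 and 13, and one at 1.6 kb had 12 and 10. OGT therefore had 4 strong control peaks and 3 strong treated peaks, where 2.94% and 3.21% of protein-coding genes had 3 or more. The limit of 3 equals the treated count of OGT and was not among the planned comparisons, and these shares are not matched for gene length. All 5 places overlapped between the lists, and no other annotated gene lay under them. No sequence is given for the places inside the gene, since only promoters were in the sequence tables used.

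HCFC1 (chrX:153947557-153971818), a cofactor found with BAP1 and OGT, differed in order between the lists. The reference tables used here give it no strand. At its higher-coordinate end the treated list had heights of 14 (18.4% of genes) and 11, and the control list had 8 (50.7%) at each of the same places. The peak of 14, chrX:153971803-153972421, shares its window with TMEM187, and it was 1 below the strong limit. The lower-coordinate end had overlapping peaks of heights 6 and 5. Beyond the higher-coordinate end, inside TMEM187, the order was the other way round, with 11 in the control list and 6 in the treated list.

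YY1 (chr14:100239144-100282788, plus strand), a zinc finger factor that forms a complex with BAP1 and HCFC1, had its strong peak after the start rather than on it. The control peak, of height 20 (12.5% of genes), covered chr14:100239525-100240097 and the treated peak, of height 33 (3.12%), covered chr14:100239725-100240113, with midpoints 667 and 775 bases after the start. Lower peaks of heights 11 and 9 lay before the start and overlapped YY1-DT, a divergent long non-coding RNA gene. The promoter between them is 82.7% G and C. A place at 7.9 kb inside the gene had heights of 16 and 13. In the map of peaks around the starts, YY1 and MBD6 have their highest peak beside a start, and OGT, MBD5 and ASXL2 have it across a start.

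**Figure D3:**
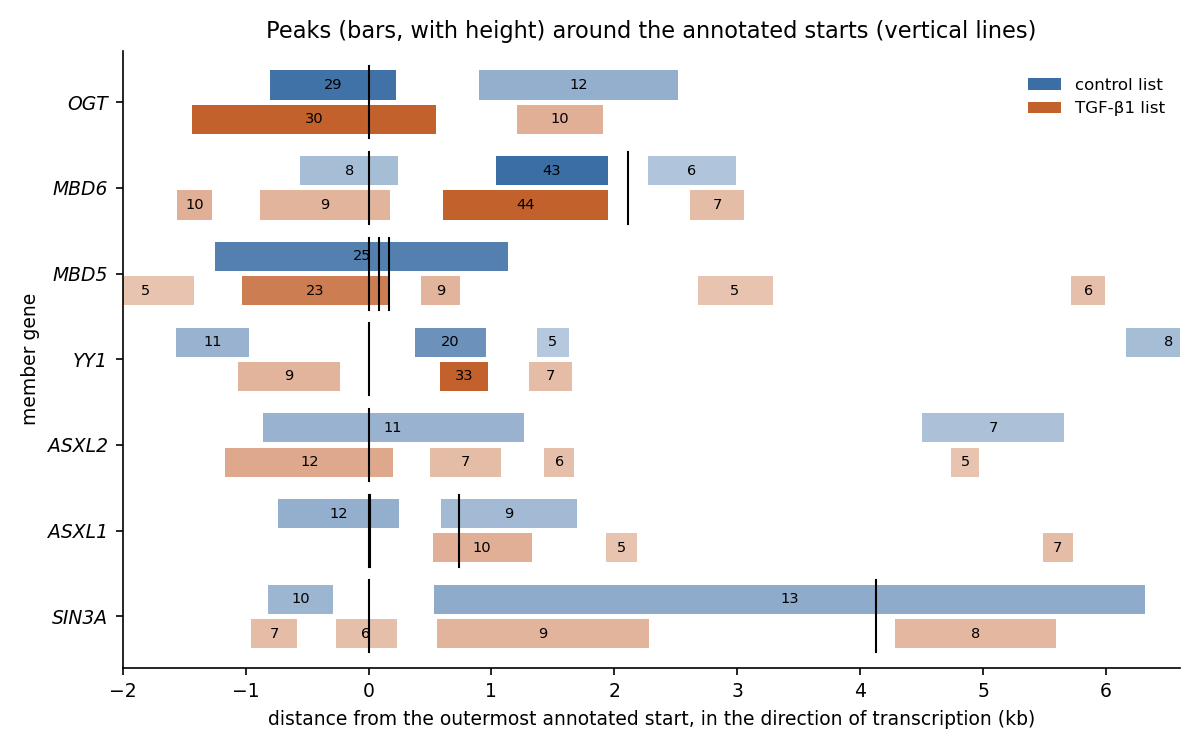
Peaks of the control (blue) and treated (TGF-β1, orange) lists around the annotated starts (vertical lines) of 7 members, against distance in kb from the outermost start in the direction of transcription. Numbers are pileup heights, and darker bars are higher. The control peak of SIN3A spans 5784 bp, and the peaks of MBD6 end just before its second start.

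Across the set, 15 pairs of overlapping peaks had a height of 10 or more in both lists, out of 71 overlapping pairs. Of the 15, 6 lay at starts, 8 inside genes and 1 in a flank. OGT had 5, ASXL1 had 3, YY1, ASXL2 and MBD5 had 2 each and MBD6 had 1, and SIN3A, SIN3B, BAP1 and HCFC1 had none. Such pairs were not counted over all genes, so it is not known whether these numbers are high for genes of this length. The highest start peaks of the lists overlapped at 6 genes, SIN3A, OGT, YY1, ASXL2, MBD5 and MBD6, against 47.3% of all genes. Where heights were tied, the peak at the lower coordinate was taken as the highest. HCFC1 was left out only by such a tie, since its other control start peak of height 8 overlapped its highest treated start peak. When any start peaks were allowed, 9 members had an overlapping pair, against 54.8%. The plot of peaks along 4 genes shows that shared places inside OGT, YY1, ASXL1 and MBD5 stand among many low peaks without a partner.

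**Figure D4:**
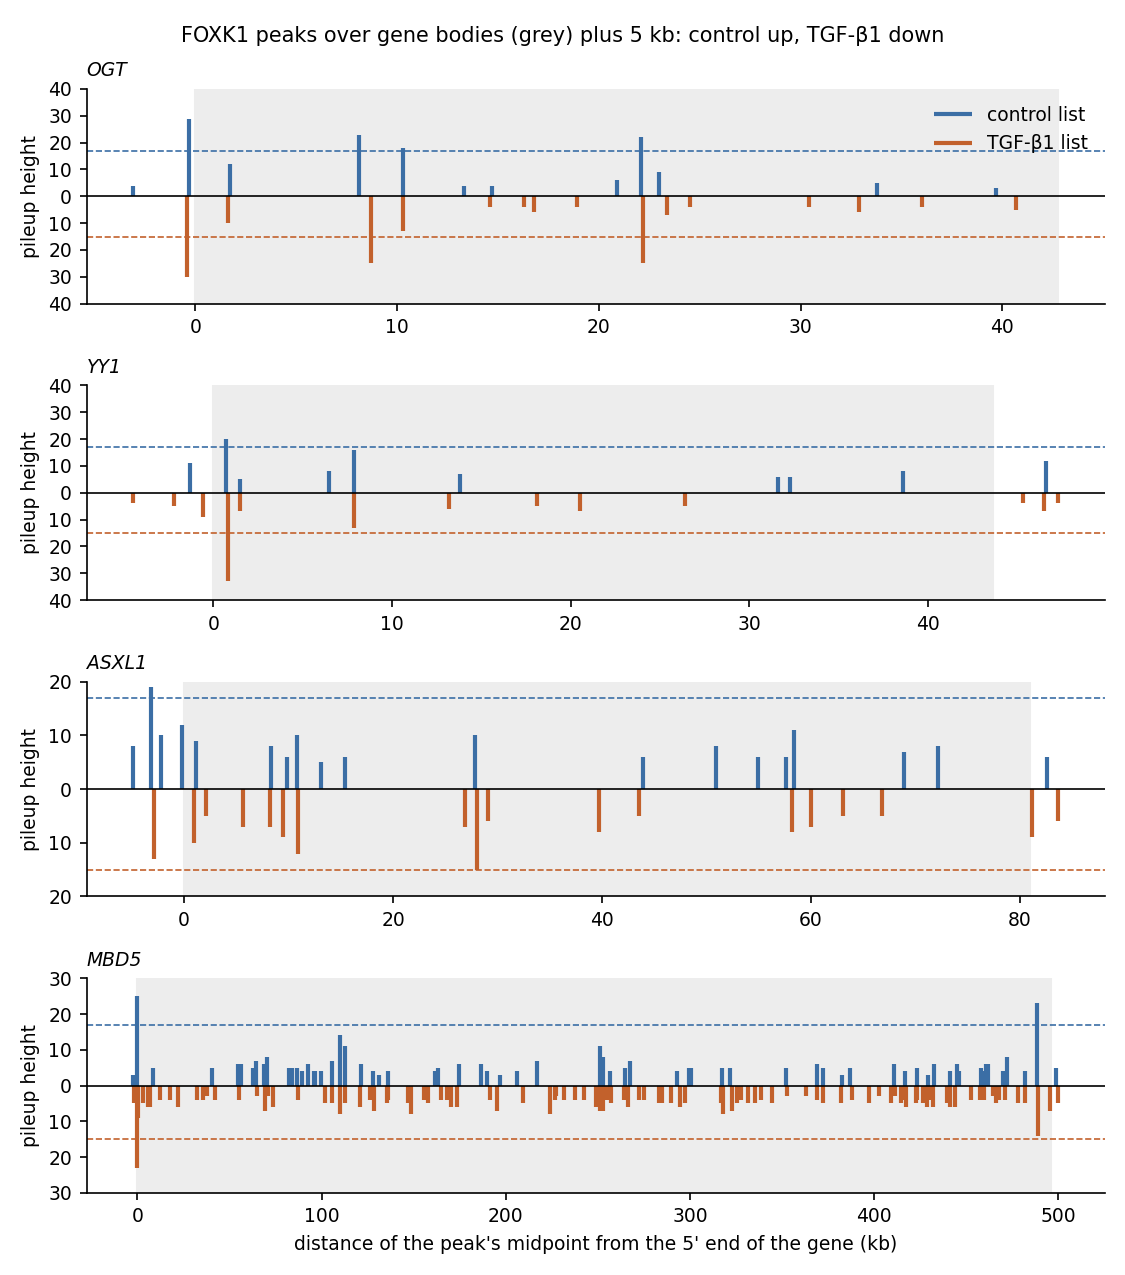
Pileup height of each FOXK1 peak over the gene body (grey) plus 5 kb of OGT, YY1, ASXL1 and MBD5, against the distance in kb of its midpoint from the 5′ end of the gene, with the control list drawn upward and the treated list downward. Dashed lines mark where strong peaks begin. OGT has 3 places that are strong in both lists. MBD5 has 1 such place at its start and 1 near its far end that is strong in the control list only.

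Most of the peaks over these genes were low. By position, 19 control and 23 treated peaks were at starts, 136 and 190 inside genes and 21 and 23 in the flanks, with median heights of 10 and 9, 5 and 5, and 6 and 5. Start peaks overlapped a peak of the other list in 17 of 19 and 18 of 23 cases, peaks inside genes in 41 of 136 and 43 of 190. No share by position was taken over all peaks, and peaks at starts were higher, so these counts cannot show a trait of the members. In all, 38.6% of the control peaks (interval 31.4 to 46.3) and 29.2% of the treated peaks (23.5 to 35.5) had a counterpart, against 26.1% and 22.9% of all peaks in the lists. The share followed height. Of control peaks of height 3 or 4, 18.6% overlapped (8.4 to 33.4, n = 43) and of those of 10 to 14, 83.3% (58.6 to 96.4, n = 18). In the treated list 9 of 75 peaks of height 3 or 4 overlapped (5.6% to 21.6%), and 91.7% of those of 10 to 14 (61.5 to 99.8, n = 12). Every peak of the set with a height of 15 or more overlapped, 10 in the control list (lower bound 69.2%) and 7 in the treated list (lower bound 59.0%), against 94.2% and 93.5% of all peaks that high. The share over all peaks lay inside the members' interval at 3 to 4, 7 to 9, 10 to 14 and 15 or more in both lists. At 5 to 6, the control share of 29.6% (19.3 to 41.6) was above the 18.4% of all peaks, which lay just below the interval. The treated share was 20.2% (13.0 to 29.2) against 17.8%. Among the separate height ranges of the 2 lists, the control range of 5 to 6 was the only exception. Over all heights together, the share of all peaks lay below the members' interval in both lists, just below it in the treated list. The intervals also treat peaks of the same gene as independent, although MBD5 held 65 of 176 control and 104 of 236 treated peaks.

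**Figure D5:**
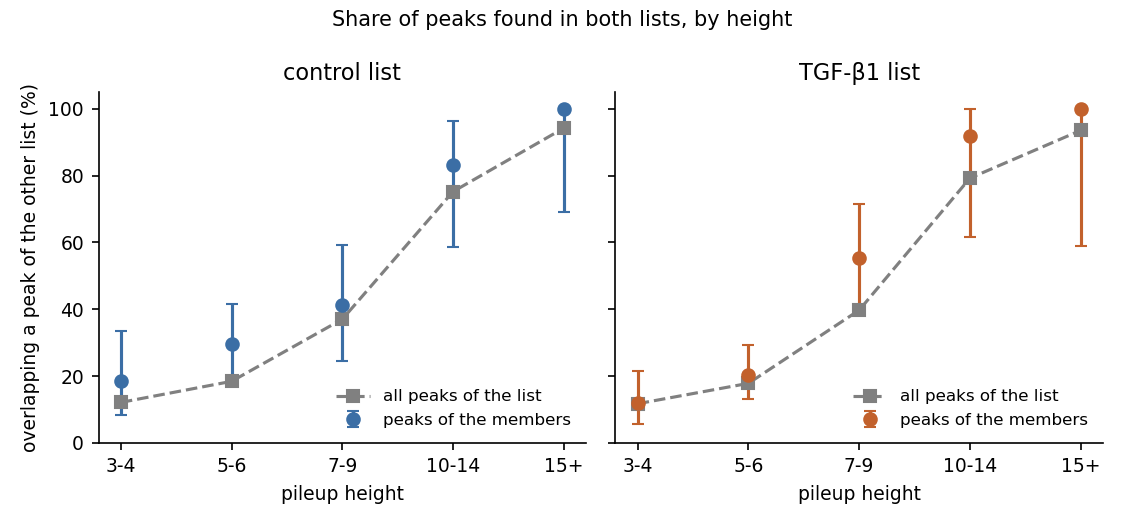
Share of peaks (in %) that overlap a peak of the other list by at least 1 bp, by pileup height, for the peaks of the members (points, with exact 95% binomial intervals) and for all peaks of each list (grey squares). The share is 100% from a height of 15 for the members in both lists and rises with height throughout.

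MBD5, the longest gene, had the most peaks, and BAP1 and MBD6, the shortest, had 4 or 5 in each list, so peaks were also counted per length. The median over the members was 20.3 control and 20.9 treated peaks per 100 kb, against 16.1 and 17.96 over all protein-coding genes. Summed over the genes, the members had 16.2 and 21.7 against 15.1 and 17.3. HCFC1 had the highest density in the control list, 29.2, and OGT in the treated list, 28.4, while MBD5 and ASXL2 had 12.8 and 12.9 in the control list and 20.6 and 23.3 in the treated list.

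Other genes of the same complexes were taken by name from their known subunits. Of 19 other genes of the SIN3 complex, all had a start peak in each list, and 8 in the control and 9 in the treated list had a strong one, against the 17.3% and 16% of all genes. The median height of their highest start peak was 16 and 14. SAP30, a subunit that bridges SIN3A and deacetylases, had heights of 61 and 40. ING2, which reads methylated histone H3, had 42 and 35, ARID4B 37 and 32, and SINHCAF 29 and 34. The peaks of these SIN3 complex genes also overlapped SAP30-DT, ING2-DT, GGPS1 and FLJ13224, in that order, so they cannot be given to a single gene. The scaffolds SIN3A and SIN3B, with 13 and 9 and with 8 and 5, were thus below the median of their partners in both lists. Of 8 further genes, the FOXK genes and relatives or counterparts of PR-DUB members, 2 and 3 were strong. OGA, which removes the sugar that OGT adds, had 49 and 37, and UCHL5, a relative of BAP1, had 32 and 19. The treated OGA peak also overlapped KCNIP2-AS1, and both UCHL5 peaks overlapped RO60. FOXK2 had 16 and 16 and KDM1B, a histone demethylase, 14 and 12. ASXL3, the remaining ASXL gene, chosen after its values were seen, had 6 and 5. FOXK1 had a start peak of height 7 in the control list and none in the treated list. Its highest peak lay 63.5 kb inside the gene, chr7:4744581-4746923, with a height of 131 in the control list, and the treated peak of 92 overlapped it.

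Of 12 genes of PRC1, the Polycomb complex that places the ubiquitin removed by PR-DUB, 11 had a start peak in the control list and all 12 in the treated list, against 71.7% and 70.5% of all genes. A strong one was found at 2 in the control list, near the background of 17.3%, and at 0 in the treated list, where the background was 16%. The 2 were KDM2B with 24 and RING1 with 20, where the treated list had 11 and 10. PCGF5 had 15 and 11 and YAF2 15 and 10. Other PRC1 genes had the higher height in the treated list. RNF2 had 9 and 14, PCGF1 8 and 12 and BMI1 5 and 8, and PCGF3 had no control start peak and a treated one of 5. These 4 were chosen after their values were seen. The median was 9.5 and 10, beside 12.5 and 13 over the members and 8 and 7 over all genes. No difference between these lists of genes was tested.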

How the data were processed

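FOXK1 chromatin and input were sequenced from HK-2 cells with and without TGF-β1, 1 library of each. The build is hg38 and the tools named are MACS2 2.1.1.20160309 and bcl2fastq 2.17, per the submitters' processing notes. The aligner, read filters and peak threshold are not given in the sources used here. Each deposited list holds position and signal of its peaks, the signal being the authors' pileup height, not normalised between libraries, as far as the files show. Peaks were listed per condition. Peaks off the 24 assembled chromosomes (394 and 506) were left out, and starts were read as counting from 0, which leaves printed starts uncertain by 1 bp.

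Overlaps were counted with scipy 1.17.1, pandas 2.3.3 and numpy 2.4.6 under Python 3.11.15 (figures: matplotlib 3.10.9). Tested on simulated data, 500 of 500 start windows gave the value of an exhaustive search. Starts were the RefSeq promoter starts plus the end of the gene that its strand makes the 5′ end; without a strand, both ends. Heights describe and rank peaks within a list. Members and gene lists were chosen with earlier results of these data known. The text names all members, FOXK1, FOXK2 and genes that share a peak with a named gene. It also names up to 4 genes per further list with the highest start peak (the higher of a gene's 2 heights). Others are named as chosen after their values were seen. Alternatives were other windows, heights, strong limits and overlap rules.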

Additional observations from a re-analysis of the deposited data

How the results depend on the processing

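Of 41 alternative values, 40 stayed within 1.5 times the reported count or density or within the reported interval. The exception was the share of control peaks over the members with a counterpart, which fell from 38.6% to 30.1% when at least 50% of the shorter peak had to overlap (21.4% of all control peaks). For counts of at most 10 the margin is wide. It passed a fall from 10 to 7 members and a rise from 4 to 6, so it says little about how firm the counts are. Strong start peaks numbered 3 to 5 in the control list and 3 to 6 in the treated list over all settings. A limit at the 5000th highest peak dropped YY1 from the control list. With this limit, 9.36% (control) and 7.87% (treated) of all genes had a strong start peak. A limit at the 20000th added SIN3A in the control list and ASXL2 and HCFC1 in the treated list. The share of all genes then rose too, to 27.8% and 28.6%. A 500 bp window dropped YY1 from the treated list. Taking both ends of every gene as starts, an alternative chosen after seeing the data, left 3 strong control members, without MBD6, and 4 with TGF-β1. No paired analysis was possible because each condition had 1 FOXK1 library and no result comes from a test. Depth is unknown, so low peaks missing from a list cannot be told from places without binding.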

Other observations

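Some genes of these complexes had a peak away from the start that was much higher than their start peak; the following were chosen after their values were seen. UBE2O, an enzyme that attaches ubiquitin to BAP1, had start heights of 10 and 8 and heights of 69 (control) and 68 (TGF-β1) at a shared place 58.8 kb into its 63.7 kb. PHF12, a SIN3-associated protein with PHD fingers, had 46 and 45 within about 2.0 kb after its 5′ end, beside start heights of 16 and 8. BCOR, a corepressor of a PRC1 variant, had 26 and 35 at 7.5 kb, beside start heights of 8 and 5. None of the 10 members had so high a peak away from a start: their highest such heights were 23 and 25.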
